A study of Mus musculus with 13 samples.

Results

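Mouse liver 24 h after partial hepatectomy was compared with liver at 0 h, position by position along the lobule, the repeating unit that runs from portal to central veins. The comparison used 4 of the 13 sections of the series, 2 at 0 h and 2 at 24 h, and 31356 of the 131221 cells. Cells with 100 or more counts were kept, which were 10298 and 10725 cells in the 0 h sections and 6065 and 4268 in the 24 h sections. Within each section the cells were ranked by the share of their counts that was Cyp2e1 and by the share that was Pck1, and the difference of these ranks was cut into 5 parts with equal cell numbers, called zones here. Zone 1 is the Cyp2e1 side and zone 5 the Pck1 side, so that the levels of these 2 genes within a zone are set by the ranking and were not tested.

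All sections came from male C57BL/6 mice aged 2 months. The surgery removed 2/3 of the liver, and the livers, frozen at a stated time, were sectioned. Transcripts of 100 genes were counted in situ by Molecular Cartography, in which single RNA molecules are seen as spots over repeated rounds of fluorescent labelling. Section 1 of 0 h and both 24 h sections lay on slide 1 and section 2 of 0 h on slide 2. The labels place both 24 h sections at 1 slide position, without the section numbers that the 0 h sections carry, so they were summed to 1 library for testing, and the spread of the 24 h group was taken from the other times. Whether the sections are of different animals is not in the labels, and the p-values may therefore measure only technical spread. What the 0 h mice underwent beyond the surgery named for all samples is not said.

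In the resting lobule, hepatocytes around the central vein carry out drug metabolism, bile acid synthesis and glutamine synthesis, and Wnt signals from central endothelium keep many of their genes on. Hepatocytes around the portal vein make glucose and urea. After loss of liver mass the remaining hepatocytes enter the cell cycle, with cyclin D1 among the first regulators to rise.

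Cells of 1 zone lay together in the tissue. The zone of a cell correlated with the mean zone of its 6 nearest cells at 0.88 to 0.93 (Pearson's r across cells of a section, which share transcripts at their borders). Oat, which the ranking did not use, fell along it at 0 h and stood at 6.67 transcripts per cell in zone 1 of section 1 and 0.0262 in zone 5, and in section 2 at 3.04 and 0.00653. Hsd17b13, a lipid droplet gene of portal hepatocytes, ran the other way, from 0.0199 to 3.83 and from 0.0163 to 2.12 transcripts per cell. Most cells in zones 4 and 5 of each section held no Cyp2e1 count, for example 1566 of 2060 and 2056 of 2059 in section 1 of 0 h, so that Pck1 set most of the order among them.

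**Figure D1:**
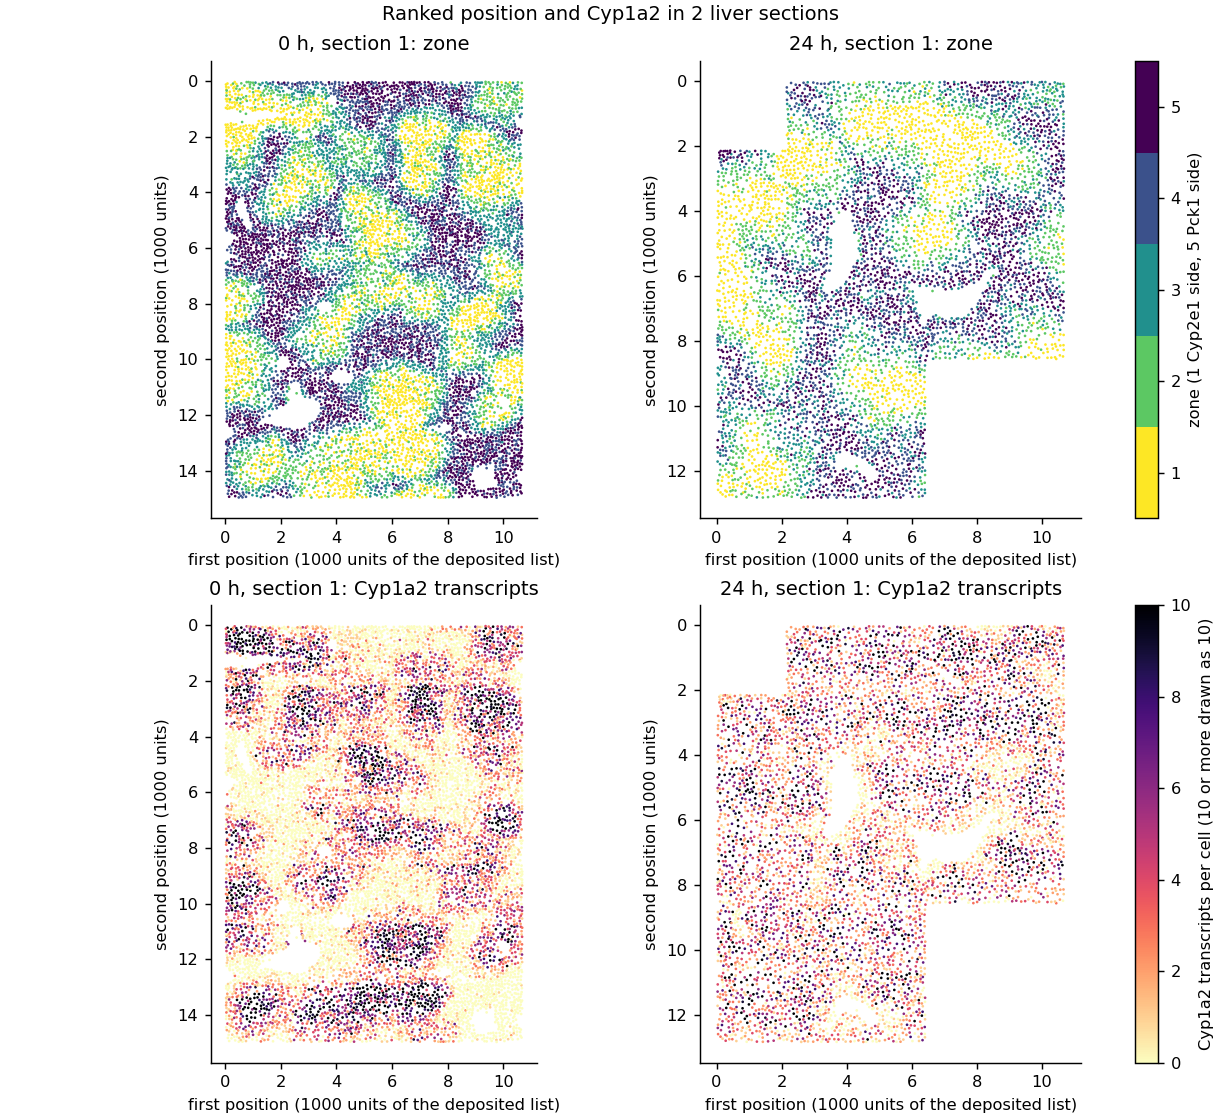
Cells of section 1 at 0 h (left) and section 1 at 24 h (right), each point a cell at its position in the deposited coordinate units, coloured by zone of the ranking (top) and by its number of Cyp1a2 transcripts (bottom, 10 or more drawn as 10). Each zone forms patches or bands in both sections. Cyp1a2 lies in patches at 0 h, with 43.4% of its transcripts in zone 1, and is spread over the tissue at 24 h, with 23.5% there.

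Kept cells had a median of 334 and 339 counts at 0 h and 364 and 373.5 at 24 h. They held 74.5% and 78.7% of all listed transcripts at 0 h and 66.3% and 70.3% at 24 h, and the part of this difference in the results was not tested. The 0 h sections differed from each other in some genes, such as G6pc (3.98 and 24.9 transcripts per cell over all cells) and Cyp7a1 (0.926 and 0.0338). Hepatocyte markers (Cps1, Cyp2e1, Arg1, Ass1, Rgn, Vtn) made up 24.3% to 71.7% of the counts of every zone. Cyp2e1, which the ranking used, was by itself 67.3% in zone 1 of section 1 at 0 h, where the markers reached 71.7%. In zone 5, where Cyp2e1 was at most 0.00166% of counts, the markers made up 24.3% to 30.9%. Values below are mean transcripts per cell, in the order section 1 and section 2, whereas fold changes come from edgeR on summed counts with TMM scaling. Against TMM scaling, scaling by cell number moved the median gene up by 0.165 (zone 4) to 0.636 (zone 2) in log2, and total-count scaling moved it by -0.098 (zone 4) to 0.821 (zone 2). A gene can therefore be higher per cell and near 0 in the fitted change. Cell names are positions, and 2 were shared between the sections compared.

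Genes changed at every position along the ranking, in both directions, and which end held more of them turned with the scaling. At an adjusted p under 0.05 in edgeR's quasi-likelihood test, 7 of 90 genes were higher in zone 1 (7.78%) and 2 lower (2.22%). In zone 2 of 93 genes 8 were higher (8.6%) and 2 lower (2.15%), and in zone 3 of 92 genes 8 were higher (8.7%) and 6 lower (6.52%). Zone 4 had 14 of 92 higher (15.2%) and 4 lower (4.35%), and zone 5 had 11 of 89 higher (12.4%) and 3 lower (3.37%). Over all cells 15 of 99 were higher (15.2%) and 6 lower (6.06%). In all, 21 genes were higher in at least 1 zone and 7 lower, with 0 genes called in opposite directions. Gstm2, Gstm3, Ccnd1 and Ccne1 were the 4 genes called higher in all 5 zones, and 0 genes were called lower in all 5. With total-count scaling zones 1 to 5 had 29, 20, 12, 9 and 9 higher and 1, 0, 0, 2 and 2 lower genes, with 20 and 2 over all cells. With scaling by cell number they had 12, 13, 16, 10 and 13 higher and 0, 0, 0, 1 and 0 lower, with 18 and 2 over all cells.

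Cyp1a2, a drug-metabolizing cytochrome P450 that is known as a central gene, lost most of its gradient. In zone 5 it stood at 0.255 and 0.0639 transcripts per cell at 0 h and at 3.02 and 3.07 at 24 h. In zone 4 the values were 0.634 and 0.186 against 3.6 and 4.44. Both 24 h sections lay far above both 0 h sections in these zones and close to each other. In zone 1 the groups overlapped, with 6.42 and 3.61 at 0 h and 4.81 and 4.52 at 24 h. The fitted log2 change was 3.96 ± 0.48 (SE) in zone 5, a 15.6-fold rise (adjusted p = 5.1e-06, edgeR), and 3.15 ± 0.45 in zone 4 (0.00025). In zones 1, 2 and 3 it was -0.53 ± 0.30, -0.34 ± 0.43 and 0.85 ± 0.51, none of which passed, and over all cells it was 0.51 ± 0.34 (adjusted p = 0.357). The level in zone 5 was 3.98% and 1.77% of that in zone 1 at 0 h, and 62.7% and 68% of it at 24 h.

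Lect2, a secreted hepatocyte protein and known Wnt target, also rose on the Pck1 side. It stood in zone 5 at 0.0112 and 0.00606 transcripts per cell at 0 h, which were 23 and 13 counts in all, and at 0.702 and 0.756 at 24 h, from 852 and 645 counts. The rise there was 63.1-fold (log2 5.98 ± 0.60, adjusted p = 7.69e-07, edgeR), and in zone 4 it was 28.6-fold (4.84 ± 0.64, 0.000159). In zone 1 Lect2 went from 1.82 and 0.537 to 4.28 and 3.52, without overlap, but a log2 change of 1.36 ± 0.50 did not pass (0.105). At 0 h zone 4 held 1.31% and zone 5 0.301% of the Lect2 transcripts of section 1, and 1.95% and 0.65% of those of section 2. At 24 h it was 8.79% and 6.67% in section 1 and 12.3% and 7.55% in section 2. Calls of Cyp1a2 and Lect2 in zones 4 and 5 passed in 30 of 30 alternatives, also when position was read from the 6 nearest cells only. With that ranking Cyp1a2 stood in zone 5 at 0.182 and 0.0345 against 2 and 2.41 transcripts per cell, and Lect2 at 0.00777 and 0.00606 against 0.524 and 0.587. Zone 1 of that ranking held 6.47 and 3.65 Cyp1a2 transcripts per cell at 0 h and 4.95 and 4.51 at 24 h, so a gradient remained. The alternatives include position from other genes, which ranked cells in part by Cyp1a2 and Lect2, so it is no separate check of them.

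**Figure D2:**
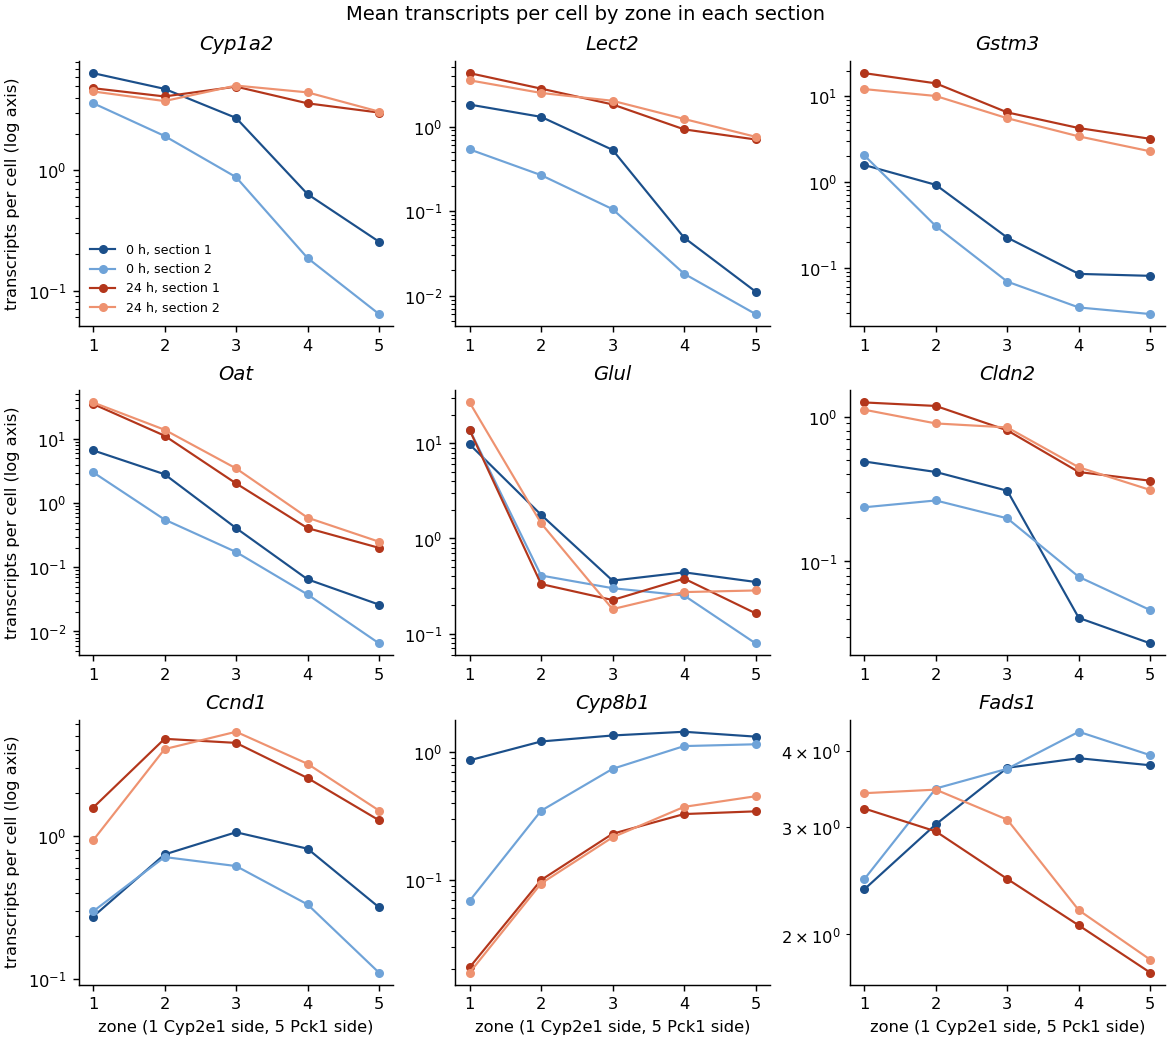
Mean transcripts per cell (log axis) of 9 genes by zone, 1 line for each section, blue for 0 h and red for 24 h. Cyp1a2 is flatter at 24 h than at 0 h in this ranking, and Oat and Gstm3 lie above 0 h in every zone. Glul is highest in zone 1 at both times, and Fads1 goes from higher in zone 5 to higher in zone 1.

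The mu-class glutathione transferases, which couple glutathione to reactive compounds, rose at every position in 2 of 3 members. Gstm3 stood at 1.58 and 2.05 transcripts per cell in zone 1 at 0 h and at 18.6 and 12.1 at 24 h. In zone 5 it went from 0.0806 and 0.0289 to 3.19 and 2.28, so that zone 5 at 24 h exceeded zone 1 at 0 h in both sections. The change was 6.22-fold in zone 1 (log2 2.64 ± 0.30, adjusted p = 0.00109), 27-fold in zone 3 (4.75 ± 0.52, 0.000238), 59.3-fold in zone 4 (5.89 ± 0.40, 2.74e-07) and 40.5-fold in zone 5 (5.34 ± 0.36, 4.53e-09, all edgeR). Gstm2 rose from 1.18 and 1.27 to 7.02 and 5.1 in zone 1 (1.86 ± 0.25 in log2, 0.00208) and from 0.0816 and 0.0331 to 0.85 and 0.754 in zone 5 (3.46 ± 0.41, 5.1e-06). Gstm1 was scarce, with at most 0.0788 transcripts per cell in any zone, and its changes of -1.21 ± 0.99 (zone 1) to 0.71 ± 0.67 (zone 5) did not pass. The 3 genes are close in sequence, and the labels do not say how the probes tell them apart. In zone 2 both rises lost their call on slide 1 alone (Gstm3 3.29, adjusted p = 0.136, and Gstm2 2.14, 0.124), as did that of Gstm2 in zone 3 (3.15, 0.221), in a fit with 1 residual degree of freedom.

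Oat, ornithine aminotransferase of central hepatocytes, rose in 4 of 5 zones, and most of its transcripts stayed in zone 1. It stood in zone 1 at 6.67 and 3.04 transcripts per cell at 0 h and at 35.2 and 37.2 at 24 h, and in zone 5 at 0.0262 and 0.00653 against 0.201 and 0.251. Zone 1 held 66.7% and 79.7% of Oat transcripts at 0 h and 71.7% and 67% at 24 h. Its log2 change was 2.48 ± 0.50 in zone 1 (adjusted p = 0.0132), 2.33 ± 0.97 in zone 2, where it did not pass, 2.55 ± 0.73 in zone 3 (0.0379), 3.07 ± 0.60 in zone 4 (0.00341) and 3.44 ± 0.59 in zone 5 (0.000307, edgeR). In zone 1 the call ended without section 1 or section 2 of 48 h (2.08 in log2, adjusted p = 0.0532 and 0.0533), and in zone 3 without any of 3 sections (0 h section 2, 24 h section 2, 14 d section 3; 0.055 to 0.086). The level of Oat in zone 5 was 0.571% and 0.674% of that in zone 1 at 24 h, where Cyp1a2 in the same cells stood at the 62.7% and 68% given above.

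Of the 16 central genes tested, 4 were called higher in zone 1, 3 in zone 2, 3 in zone 3, 6 in zone 4 and 8 in zone 5, where of all genes tested 7.78%, 8.6%, 8.7%, 15.2% and 12.4% were. Cyp27a1, which oxidizes sterol side chains, was the 1 called lower, in zones 2 and 4. The median log2 change of the list was 0.44, 0.48, 0.89, 1.45 and 1.36 from zone 1 to 5, beside 0.10, -0.18, -0.24, 0.04 and -0.07 over all genes tested. The list was chosen with earlier results of these data known, and all genes tested include its members, so these values describe the list and do not test it. Cldn2, a claudin of tight junctions, rose in zone 4 from 0.0408 and 0.0783 to 0.415 and 0.447 transcripts per cell (log2 2.59 ± 0.53, adjusted p = 0.00423) and in zone 5 from 0.0272 and 0.0462 to 0.361 and 0.312 (2.65 ± 0.51, 0.001). Axin2, a feedback inhibitor that Wnt signalling induces, rose in zone 5 from 0.0112 and 0.00653 to 0.0486 and 0.0516 (2.07 ± 0.63, 0.0289), and stood at 0.407 and 0.408 against 0.624 and 0.679 in zone 1 (0.19 ± 0.37, 0.843). Rgn, the calcium-binding regucalcin, rose in zone 5 from 0.0578 and 0.0485 to 0.219 and 0.246 (1.65 ± 0.44, 0.0129). The call of Axin2 ended without section 2 of 0 h (2.06, 0.0543), and all 3 calls in zone 5 ended with only the 0 h and 24 h sections (0.0749). Those of Axin2 and Rgn also ended under total-count scaling and with tiles, that of Axin2 with position from the 6 nearest cells (down to 0.94 in log2) and that of Rgn with position from other genes (down to 0.22).

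Glul and Lgr5 were not called on the portal side. Glul, glutamine synthetase of the innermost central cells, stood in zone 1 at 9.77 and 14 transcripts per cell at 0 h and at 13.8 and 27 at 24 h, and the groups overlapped. Zone 1 held 77% and 93.1% of Glul transcripts at 0 h and 92.6% and 92.5% at 24 h. Its log2 changes ran from -1.31 ± 0.46 (zone 3, adjusted p = 0.0718) to 0.19 ± 0.57 (zone 1, 0.901), and none passed in edgeR. Lgr5, a receptor for R-spondins that strengthens Wnt signals, rose in zone 1 from 0.0437 and 0.0457 to 0.228 and 0.189 (1.76 ± 0.41, 0.0222) and in zone 2 from 0.0117 and 0.0112 to 0.0973 and 0.0785 (2.30 ± 0.62, 0.0433). In zone 5 it rested on 6 and 16 counts at 0 h and 8 and 7 at 24 h (-0.07 ± 0.78). The calls of Lgr5 ended without section 1 of 24 h or any of the 14 d sections in both zones, without section 1 or 2 of 48 h in zone 1 and without section 1 of 0 h in zone 2 (adjusted p = 0.0553 to 0.103). Tbx3, a Wnt target among transcription factors, kept 67.1% and 63% of its transcripts in zone 1 at 0 h and 67.7% and 67.8% at 24 h, and its change did not pass in any zone.

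**Figure D3:**
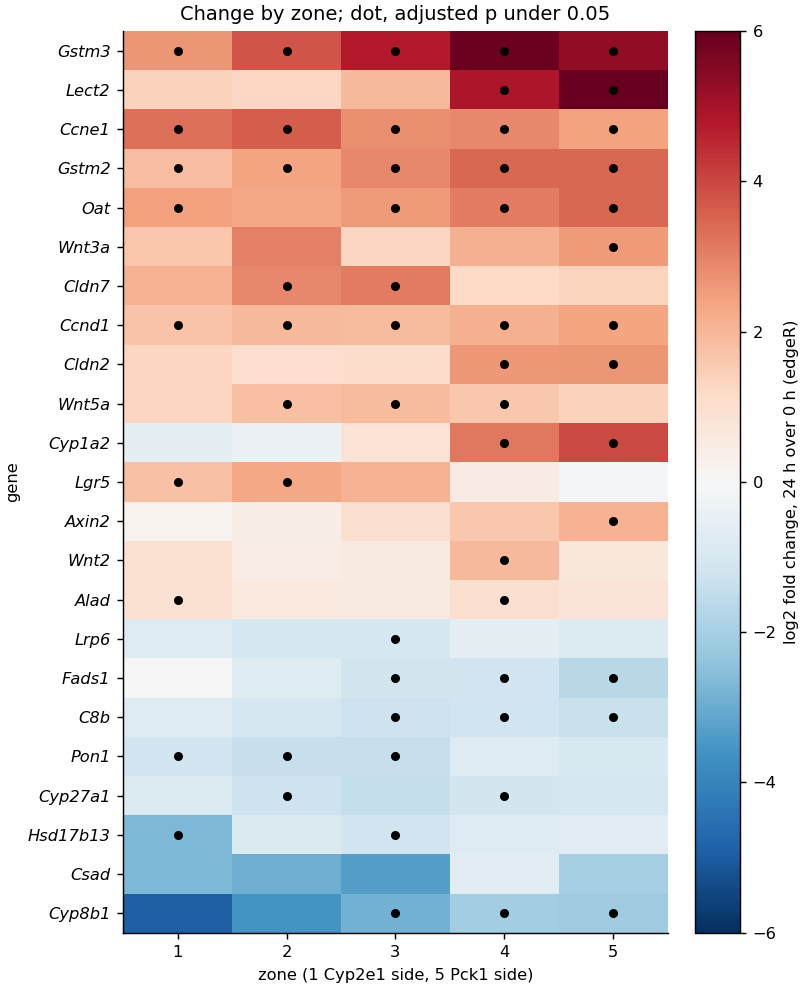
Fitted log2 change (24 h over 0 h, colour) by zone for the genes that the naming rule gave, leaving out Cyp2e1 and genes with 3 or fewer counts at 0 h in a called comparison. A dot marks an adjusted p under 0.05 in edgeR. Gstm3 and Gstm2 are dotted in all 5 zones, Lect2 and Cyp1a2 in zones 4 and 5, and Cyp8b1 in zones 3 to 5.

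The G1 cyclins Ccnd1 and Ccne1 rose in all 5 zones, and Ccnd1 was highest per cell in the middle ones. Ccnd1, cyclin D1, stood at 0 h at 0.274 and 0.298 transcripts per cell in zone 1, 1.06 and 0.617 in zone 3 and 0.318 and 0.111 in zone 5. At 24 h it stood at 1.57 and 0.932 in zone 1, 4.46 and 5.33 in zone 3 and 1.29 and 1.5 in zone 5. Both 24 h sections exceeded both 0 h sections in all 5 zones. The log2 change was 1.71 ± 0.30 in zone 1 (adjusted p = 0.00748), 1.94 ± 0.26 in zone 2 (0.00149), 1.89 ± 0.31 in zone 3 (0.00314), 2.15 ± 0.36 in zone 4 (0.00103) and 2.35 ± 0.39 in zone 5 (0.000241, edgeR). Zone 2 held 23.1% and 34.4% of Ccnd1 transcripts at 0 h and 32.6% and 26.9% at 24 h, and zone 3 held 33% and 29.8% against 30.5% and 35.6%. In zone 1 the call ended without section 1 of 24 h, section 1 of 14 d or section 3 of 14 d (1.13 to 1.38 in log2, adjusted p = 0.0542 to 0.0687), and with only the 0 h and 24 h sections (0.0772). On slide 1 alone the calls in zones 1, 2 and 3 ended (0.0855, 0.124 and 0.221).

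Ccne1, cyclin E1, which acts at entry into DNA synthesis, was scarcer and less even at 0 h. It stood in zone 2 at 0.0495 and 0.0107 transcripts per cell at 0 h and at 0.598 and 0.467 at 24 h (log2 3.62 ± 0.69, adjusted p = 0.00922), and in zone 5 at 0.0831 and 0.00746 against 0.27 and 0.304 (2.43 ± 0.71, 0.0289, edgeR). Section 1 of 0 h lay above section 2 in every zone, and both lay below both 24 h sections. The call ended in zone 1 without 5 single sections (section 1 of 24 h, 1 and 2 of 48 h, 1 and 3 of 14 d), in zone 3 without section 2 of 72 h or 3 of 14 d, and in zone 5 without 6 (1 and 2 of 48 h, 1 and 2 of 72 h, 2 of 14 d, 3 months), with adjusted p from 0.0515 to 0.0939 in edgeR. In zone 5, where it passed in 17 of 30 alternatives, it also ended with total-count scaling, only the 0 h and 24 h sections, cells with 200 or more counts, position from other genes or from the 6 nearest cells, and tiles (0.0505 to 0.164). Without section 1 of 0 h the change there was 4.77 in log2 and without section 2 of 0 h 1.68, both still called. On slide 1 alone the call ended in zones 1 to 4, for example at 3.00 in log2 in zone 2 (0.258). Ccna1 had 0 counts at 0 h and 14 at 24 h over all cells, at least 9.2-fold higher when the summed 0 h group is set to 3 counts. Ccnb1 had 3 and 0 counts at 0 h and 2 and 2 at 24 h.

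After each cell was thinned to 100 counts, 17.2% and 18.6% of zone 2 cells held a Ccnd1 count at 0 h (40% and 41.6% unthinned) and 68.3% and 58.5% at 24 h (91.2% and 88.2%). In zone 5 the thinned shares were 8.74% and 2.75% at 0 h (18.4% and 8.48% unthinned) and 23.3% and 25.9% at 24 h (50% and 55.7%). The Wilson 95% interval of the lowest 24 h share, 19.1% in zone 1 of section 2, did not reach any 0 h share of that zone (6.31% and 8.62%), and such intervals cover counting error only. Ccne1 was found in 1.02% and 0.466% of zone 2 cells at 0 h (4.66% and 1.07% unthinned) and in 14.9% and 10.3% at 24 h (34.6% and 29.4%). For comparison, the endothelial gene Pecam1 was found in 19.1% and 15.9% of zone 2 cells at 0 h (36% and 27.7% unthinned) and in 26.1% and 23.3% at 24 h (38.2% and 38.8%). The macrophage gene Adgre1 was found in 7.18% and 6.25% against 6.84% and 7.49% (13% and 10.3% against 11.3% and 12.6% unthinned). These 2 genes belong to other cell types and show how often an outline held transcripts of such cells. Thinning fixed the total of a cell, in which Cyp2e1 made up 53.9% and 42.7% of zone 2 counts at 0 h and 13.9% and 23.8% at 24 h. Other genes therefore had more room among the 100 counts at 24 h in that zone, and the part of this in the shares was not tested. In zone 5 Cyp2e1 made up at most 0.00166% of counts.

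**Figure D4:**
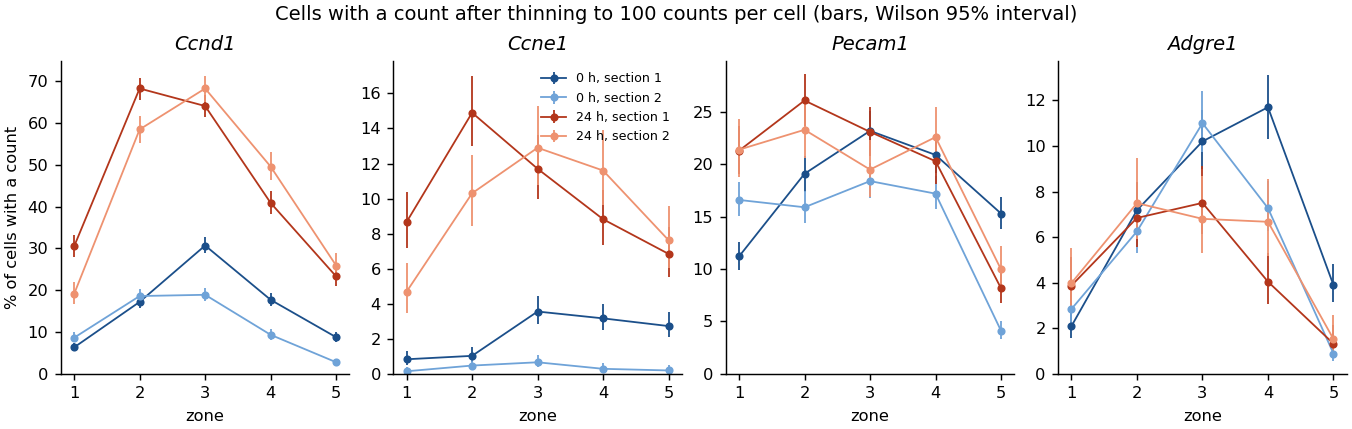
Percent of cells with at least 1 count after thinning to 100 counts per cell, by zone, for Ccnd1, Ccne1, the endothelial Pecam1 and the macrophage Adgre1, 1 line for each section with Wilson 95% intervals. Ccnd1 and Ccne1 of both 24 h sections lie above both 0 h sections in every zone, and are highest in zone 2 or 3 at 24 h. Pecam1 overlaps between times in zones 3 to 5, and Adgre1 in zones 2 and 5.

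Of 4 bile acid and taurine genes 3 were called lower over all cells, beside 6.06% of all genes, but under total-count scaling and scaling by cell number only Cyp8b1 was (-2.21 and -2.16, with Csad at adjusted p = 0.108 and 0.112 and Cyp27a1 at 0.283 and 0.474). By zone the fall of Cyp8b1, a sterol hydroxylase needed to make cholic acid, passed in zones 3, 4 and 5, but it was not shown to be larger there. Cyp8b1 stood in zone 5 at 1.33 and 1.16 transcripts per cell at 0 h and at 0.345 and 0.453 at 24 h (log2 -2.15 ± 0.46, adjusted p = 0.0026). In zone 4 it went from 1.45 and 1.12 to 0.328 and 0.373 (-2.08 ± 0.48, 0.00952), and in zone 3 from 1.35 and 0.742 to 0.23 and 0.216 (-2.85 ± 0.80, 0.0345, edgeR). In zone 1 the 0 h sections stood at 0.866 and 0.0685 and the 24 h sections at 0.0206 and 0.0187, and a change of -4.89 ± 1.71 did not pass. Cyp27a1 stood at 5.21 and 3.46 against 2.96 and 2.76 in zone 2 (-1.23 ± 0.33, 0.0433) and at 3.35 and 1.81 against 1.3 and 1.36 in zone 4 (-1.12 ± 0.35, 0.0416). Csad, an enzyme of taurine synthesis, did not pass in any zone (0.0528 in zone 2) and over all cells rested on 0.115 and 0.0186 against 0.0137 and 0.0138 transcripts per cell. Neither did Cyp7a1 pass, which catalyses the first step from cholesterol to bile acids, with 1.86 and 0.0904 against 0.278 and 0.281 in zone 1 (-2.13 ± 1.49). The call of Cyp8b1 in zone 3 ended without section 1 of 0 h or section 3 of 14 d (0.0557 to 0.0791) and with both other scalings, and in zone 5 with scaling by cell number (-1.67, 0.0747). Over all cells the change of Csad went from -2.65 to -0.89 in log2 without section 1 of 0 h (0.111), and its call also ended without section 2 of 48 h or 72 h (0.0531 and 0.0563). That of Cyp27a1 ended without section 1 of 0 h (-0.66 in place of -1.10), section 3 of 14 d or the 6 month section (0.0536 to 0.099). By zone those of Cyp27a1 ended without 8 single sections in zone 2 and 5 in zone 4, section 1 of 0 h among them both times, and with total-count scaling or scaling by cell number (-0.41 at the least in zone 2).

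Fads1, C8b and Pon1 fell in 3 zones each. Fads1, a desaturase of long fatty acids, stood in zone 5 at 3.79 and 3.94 transcripts per cell at 0 h and at 1.73 and 1.82 at 24 h (log2 -1.64 ± 0.37, adjusted p = 0.00417), and in zone 4 at 3.89 and 4.3 against 2.07 and 2.19 (-1.17 ± 0.30, 0.0153). In zone 1 it was higher per cell at 24 h, 3.22 and 3.41 against 2.37 and 2.46, with a fitted change of -0.03 ± 0.26. Its level in zone 5 was 160% and 160% of that in zone 1 at 0 h and 53.8% and 53.3% of it at 24 h. C8b, a complement gene, was called lower in zones 3, 4 and 5, for example from 8.16 and 7.21 to 4.25 and 4.29 in zone 5 (-1.33 ± 0.34, 0.00922). Pon1, the serum paraoxonase, was called lower in zones 1, 2 and 3, for example from 6.94 and 6.04 to 4.45 and 3.43 in zone 1 (-1.15 ± 0.23, 0.0132, edgeR). With scaling by cell number the calls of Fads1, C8b and Pon1 ended in every zone (Fads1 -1.13 in zone 5, C8b -0.61 in zone 3, Pon1 -0.69 in zone 1). Those of Fads1 and C8b in zone 3 and of Pon1 in zone 2 also ended without 4 to 6 single sections, section 3 of 14 d among them each time.

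Few portal genes passed the test. Of 8 tested in each zone, Hsd17b13 was the 1 called, lower in zones 1 and 3, and the call in zone 1 ended under 5 settings (adjusted p = 0.0609 to 0.198). It stood in zone 1 at 41 and 35 counts at 0 h and 6 and 2 at 24 h (log2 -2.67 ± 0.59, adjusted p = 0.0166) and in zone 5 at 3.83 and 2.12 transcripts per cell against 2.65 and 2.12 (-0.69 ± 0.32, 0.138). In zone 3 the groups overlapped (1.59 and 1.01 against 1.21 and 0.471), and the call there ended without 10 of the 13 sections, all but section 2 of 0 h, section 1 of 24 h and 6 months, with -0.66 at the least. The list's median change ran from -0.91 (zone 3) to -0.56 (zone 4). The list holds Prodh, which in these sections was higher on the Cyp2e1 side. Its zone 5 level was 38.6% and 22.3% of that in zone 1 at 0 h and 23.6% and 24.4% of it at 24 h. Of the urea cycle genes Cps1, Arg1 and Ass1, 0 passed in any zone. Cps1 was higher per cell at 24 h at every position, for example 62.3 and 71.2 against 32.1 and 34.1 transcripts in zone 5, with a fitted change of 0.48 ± 0.36 (0.419) and, scaled by cell number, of 1.00 (0.0802). G6pc of gluconeogenesis stood in zone 5 at 6.38 and 47.9 at 0 h and 13.9 and 13.4 at 24 h, so that both 24 h sections lay between the 0 h sections.

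Wnt ligands and receptors gave scattered calls on few transcripts. Of 14 to 16 ligands tested by zone, 0, 1, 2, 3 and 1 were called higher from zone 1 to 5 and 0 lower, beside 7.78%, 8.6%, 8.7%, 15.2% and 12.4% higher of all genes. Wnt5a, a ligand of the non-canonical branch, rose in zones 2, 3 and 4, from 0.0233 and 0.0396 to 0.157 and 0.222 transcripts per cell in zone 3 (log2 1.90 ± 0.47, adjusted p = 0.0297). Wnt2, a ligand of liver endothelium, was called in zone 4, from 0.0238 and 0.0173 to 0.0791 and 0.105 (1.95 ± 0.52, 0.0183), and stood in zone 1 at 0.129 and 0.166 against 0.421 and 0.356 (0.92 ± 0.38, 0.143). Wnt9b in zone 4 rested on 1 and 1 counts at 0 h and 1 and 20 at 24 h, a ratio of 18 (exact 95% interval 4.39 to 158), and without section 2 of 24 h it stood at 0.57 in log2 (0.892). Wnt7b in zone 3 had 3 counts at 0 h and 26 at 24 h, a ratio of 15.6 (4.8 to 80.8), and Fzd2 in zone 2 had 0 and 10, at least 7.68-fold higher with the same floor. Wnt3a was the ligand called in zone 5 (2.55 in log2), and its call ended with DESeq2 and with position from other genes or from the 6 nearest cells. Among the 12 frizzled and co-receptor genes of the panel Lrp5 was called higher in zone 4 (1.12 in log2) and Lrp6 lower in zone 3 (-1.08), and both calls ended under several settings, DESeq2 among them. The call of Fzd2 in zone 2 ended without 9 single sections and that of Wnt7b in zone 3 without 5, with the range of adjusted p from 0.0502 to 0.124. Over all cells 4 of 18 ligands were called higher (Wnt3a, Wnt5a, Wnt7a and Wnt7b), beside 15.2% of all genes. These 4 calls ended with only the 0 h and 24 h sections. Fzd2 over all cells had 1 count at 0 h and 31 at 24 h, a ratio of 61.1 (10.2 to 2490). That call passed in 24 of 25 alternatives and ended in cells without marker counts of other cell types. The calls of Wnt5a ended without section 3 of 14 d in all 3 zones, in zone 2 also without section 2 of 24 h or section 1 or 2 of 14 d, and in zone 4 also without section 1 of 14 d (0.0521 to 0.0911 in all).

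Markers of other cell types differed along the ranking and in part with time. Endothelial genes (Pecam1, Wnt2, Wnt9b, Rspo3) made up 0.186% and 0.293% of counts in zone 1 at 0 h and 0.608% and 0.617% at 24 h, and 0.208% and 0.0453% against 0.119% and 0.152% in zone 5. Of these 4 genes 0 were called in zone 1 with TMM scaling or scaling by cell number, but all 4 were called higher there with total-count scaling. Cyp2e1 went from 67.3% and 62.7% of zone 1 counts at 0 h to 30.9% and 41.2% at 24 h, which by itself raises the shares of other genes there. The part of this in the endothelial shares was not tested. Macrophage genes (Adgre1, Lyz2) went from 0.285% and 0.0702% to 0.101% and 0.113% in zone 5, and the leukocyte gene Ptprc from 0.0355% and 0.00602% to 0.0092% and 0.0138%. Cholangiocyte genes (Sox9, Cldn7) made up 0.00565% and 0.00655% of counts in zone 2 at 0 h and 0.0267% and 0.068% at 24 h, and Cldn7 rose there (2.90 ± 0.70 in log2, adjusted p = 0.0347) and in zone 3 (3.10 ± 0.58, 0.00696, edgeR). In zone 2 the call of Cldn7 ended without section 2 of 24 h or any of the 14 d sections (0.0627 to 0.118). In cells with no count of Pecam1, Adgre1, Lyz2, Ptprc, Lrat, Sox9 or Cldn7, the change in zone 5 was 4.16 for Cyp1a2, 5.99 for Lect2, 5.41 for Gstm3 and 4.36 for Oat in log2, all called. Among the named genes still tested in these cells, calls ended for Alad and Hsd17b13 in zone 1 and for Cyp27a1, Lgr5 and Pon1 in zone 2 (adjusted p = 0.0585 to 0.221). In zone 3 they ended for C8b, Fads1, Hsd17b13, Lrp6 and Pon1 (0.125 to 0.494), and in zone 4 for Cyp27a1, Lrp5, Wnt5a and Wnt2 (0.114 to 0.92), with Wnt2 at 0.27 in log2. In the comparison not split by zone, calls ended in these cells for C8b, Cldn2, Csad, Cyp27a1, Fzd2, Lect2, Wnt3a and Wnt7a.

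Whether the change differed between the ends of the ranking was tested directly, as the log2 change in zone 1 minus that in zone 5 (limma, 88 genes). For 2 genes (2.27%) it was more positive in zone 1 and for 5 (5.68%) less so. Cyp1a2 gave -4.62 (95% interval -5.72 to -3.51, adjusted p = 0.00107) and Lect2 -4.39 (-5.87 to -2.92, 0.0062). Gstm3 followed with -2.72 (-4.07 to -1.36, 0.0412), Hsd17b13 with -1.82 (-2.83 to -0.81, 0.0456) and Rgn with -1.78 (-2.76 to -0.80, 0.0456). Fads1 gave 1.57 (0.79 to 2.35, 0.0412) and the scarce ligand gene Wnt7a 2.09 (0.91 to 3.26, 0.0456), the latter on 4 counts in zone 1 at 0 h. For Ccnd1 the difference was -0.68 (-2.08 to 0.71) and for Ccne1 0.68 (-0.86 to 2.21), so neither a larger central nor a larger portal rise was shown. Oat gave -1.04 (-2.06 to -0.02, 0.245), Glul 0.35 (-1.69 to 2.39) and Cldn2 -1.45 (-3.35 to 0.46). The call of Cyp1a2 ended in 1 of 29 alternatives, slide 1 alone (-4.82, 0.0952), and that of Lect2 there and with only the 0 h and 24 h sections (-5.58 and -4.62). Position from other genes, which ranked cells in part by Cyp1a2, Lect2 and Hsd17b13, was among the alternatives. The calls of the other 5 genes each ended under 7 to 12 settings and without 5 or more single sections. With the slide as a block Cyp1a2 and Lect2 alone were left.

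**Figure D5:**
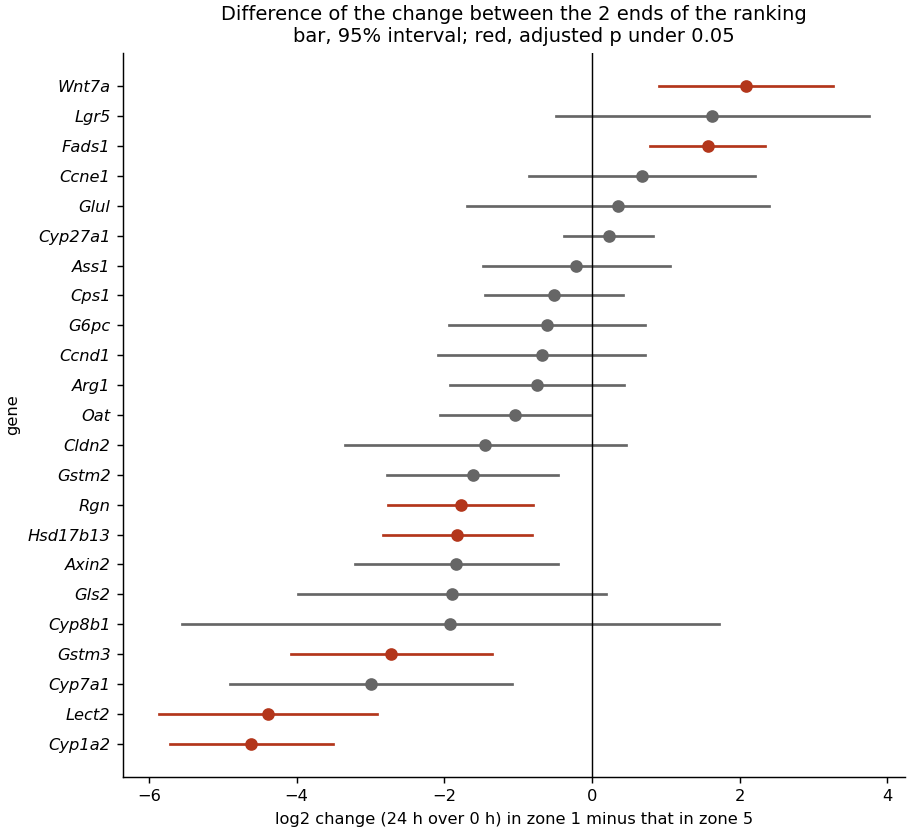
Log2 change (24 h over 0 h) in zone 1 minus that in zone 5, with 95% intervals, for the 7 genes called in limma (red) and 16 others from the central, portal, bile acid and cell cycle lists (grey). Points left of 0 rose more, or fell less, on the Pck1 side. Cyp1a2 at -4.62 and Lect2 at -4.39 lie farthest from 0, and the intervals of Ccnd1, Ccne1 and Glul include 0.

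Cyp2e1 itself, which fell over all cells from 126 and 98.9 to 36.4 and 58 transcripts per cell (log2 -1.80 ± 0.34, adjusted p = 0.000497, edgeR), is described here without a test by position. Its call over all cells ended on slide 1 alone, where the change was -1.84 in log2. When position was read from other genes, zone 1 held 309 and 277 transcripts per cell at 0 h and 120 and 165 at 24 h, and zone 3 held 72.9 and 49.7 against 9.5 and 27.4. Both 24 h sections were below both 0 h sections in these zones. Pck1 over all cells stood at 33.1 and 68.3 at 0 h and 70.4 and 65.2 at 24 h, and the groups overlapped.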

How the data were processed

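Cells were outlined and transcripts of 100 genes counted in situ in 13 sections, and the whole-number counts per cell and gene were used as deposited, not normalized. The positions of single transcripts, in units of unstated length, were used as deposited to check the cells and to draw the map. No label says how cells were outlined. Both members and gene lists were chosen with earlier results of these data known. Counts by list therefore describe the lists and do not test them, and the shares over all genes include their members.

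Cells with 100 or more counts were ranked and cut into 5 zones per section, and counts were summed per section and zone. The 13 sections made 12 libraries, the 24 h sections being summed, with kept counts per 0 h or 24 h section of 1661149 to 3945457. edgeR 4.0.16 in R 4.3.3 (TMM, robust quasi-likelihood test, time as the factor, 5 residual degrees of freedom) tested genes with 10 or more counts in at least 2 libraries. All errors after ± are approximate standard errors, taken as the absolute log2 change divided by the square root of the quasi-likelihood F statistic. The Benjamini-Hochberg threshold was 0.05. limma 3.58.1 tested the difference between zones 1 and 5 on log2 CPM (prior count 2, mean of 10 or more counts). DESeq2 1.42.0, other scalings, filters, rankings, slide settings and leaving out each section were alternatives, and tiles of 400 units took the place of cells in another. Position from other genes was the mean rank of Glul, Cyp1a2, Oat, Lect2 and Cyp27a1 minus that of Gls2, Arg1, Ass1, Cps1 and Hsd17b13. For these genes themselves that setting is no separate check. Reading position from the 6 nearest cells and leaving out cells with marker counts were chosen after seeing the data. Floors were 3 counts over a group, and intervals cover counting error only. The scripts were tested on simulated data.

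The genes named were, per zone and over all cells, up to 10 of the largest rises and falls that passed with both 24 h sections beyond both 0 h sections, the genes called between zones 1 and 5, and a list of cell cycle, zonation and metabolic genes. Members of the gene lists and markers of other cell types were named beside them. Doublets were not called.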

Additional observations from a re-analysis of the deposited data

Results flagged for a closer look

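For 7 genes the change from 0 h to 24 h differed between the ends of the ranking in limma (log2 change in zone 1 minus that in zone 5). These were Cyp1a2 at -4.615, Lect2 at -4.391, Gstm3 at -2.715, Hsd17b13 at -1.82 and Rgn at -1.779, with Fads1 at 1.568 and Wnt7a at 2.086 in the opposite direction. For Cyp1a2 the value was -4.82 on slide 1 alone and -4.60 with the slide as a block.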

How the results depend on the processing

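No paired analysis was possible because the labels link no 0 h section to a 24 h section. The number of genes called was 21 over all cells, 9, 10, 14, 18 and 14 in zones 1 to 5 and 7 between the ends. Total-count scaling gave 30, 20 and 11 in zones 1, 2 and 4, and scaling by cell number 11 in zone 4 and 4 between the ends. DESeq2 gave 32 over all cells and 14, 22 and 26 in zones 1, 2 and 5. With the 24 h sections as 2 libraries there were 37 over all cells, 23, 23, 28, 28 and 27 in zones 1 to 5 and 14 between the ends. With only the 0 h and 24 h sections there were 10 over all cells, 4, 5, 9 and 7 in zones 1, 2, 3 and 5 and 1 between the ends. The slide as a block gave 17 in zone 2 and 2 between the ends. Slide 1 alone gave 13 over all cells, 0, 1 and 11 in zones 2, 3 and 4 and 0 between the ends, where edgeR and limma had 14 (zone 2) and 16 (between the ends) at an unadjusted p under 0.05. Cells with 200 or more counts gave 5, 9 and 2 (zones 2, 3, ends), tiles 5, 7 and 3, the 6 nearest cells 23 in zone 3 and 4 between the ends, thinned ranking 3 and position from other genes 2 between the ends, and cells without marker counts 11 over all cells and 5 in zone 2. Leaving out 1 section gave 19 to 34 over all cells (34 without section 1 of 0 h), 5 to 17, 4 to 17, 5 to 26, 15 to 27 and 14 to 31 in zones 1 to 5, and 2 to 18 between the ends (18 without section 2 of 0 h). Of 5477 comparisons of single genes under an alternative, 4853 kept their side of the threshold, 441 lost a call and 183 gained one. Called changes reversed direction in 0. The 4853 include changes that switched sign without a call in either fit, such as Cyp7a1 over all cells (-2.06, up to 1.65 in log2). The causes were not tested. The 24 h spread rests on other times, since its sections count as 1 library.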

Other observations

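Alad, an early enzyme of heme synthesis, was higher per cell at 24 h at every position, for example 12 and 11.4 against 4.55 and 4.49 transcripts in zone 1 (log2 0.90 ± 0.22, adjusted p = 0.028, edgeR) and 5.16 and 5.45 against 2.64 and 2.17 in zone 4 (0.94 ± 0.23, 0.0111). Leaving out any of 8 single sections ended the call in zone 1, both 24 h sections among them (adjusted p up to 0.2), and leaving out section 1 of 14 d ended that in zone 4 (0.0827). The call in zone 4 also ended with total-count scaling, scaling by cell number, DESeq2, no filter on low counts, only the 0 h and 24 h sections and slide 1 alone (0.0569 to 0.146), and that in zone 1 under 7 settings other than leaving out a section (0.0569 to 0.419). In zones 2, 3 and 5 Alad did not pass, but total-count scaling and scaling by cell number both called it in zones 2 and 3.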
